A study of Mus musculus with 16 samples.

Results

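The genes described here encode the UDP-glucuronosyltransferases (Ugt1, Ugt2 and Ugt3 genes), the cytosolic, mitochondrial and peroxisomal glutathione S-transferases (Gst genes) and the cytosolic sulfotransferases (Sult genes) of mouse liver. They were chosen by gene symbol: every row whose symbol starts with Ugt1, Ugt2 or Ugt3 and a letter, with Gst, 1 of the class letters a, k, m, o, p, t or z and a digit, or with Sult and a digit, and that has an FPKM value (fragments scaled to transcript length and sequencing depth) above 0 in any library. This gave 56 of the 14191 genes listed, made up of 19 Ugt, 20 Gst and 17 Sult genes. Of these, 48 were listed at 8 weeks, 53 after reversal and 45 at both stages.

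The study asked what the loss of Mfap2 does in experimental liver fibrosis. Mfap2 encodes microfibril-associated glycoprotein-1, a protein of the extracellular microfibrils. Bulk RNA-seq was made from frozen liver of 16 mice in 4 groups of 4. Mfap2-/- mice (knockout, KO) and Mfap2+/+ mice (wild type, WT) had received the liver toxin carbon tetrachloride (CCl4) by intraperitoneal injection for 8 weeks. In the reversal groups, Mfap2-/- and Mfap2+/+ mice had the same 8 weeks of CCl4 and then 4 weeks without it. Every mouse had thus been given CCl4, and no liver without CCl4 was analysed here. Strain, sex and age are not given in the labels, nor is the way the Mfap2 allele was made. The labels number the mice within each group, and p-values measure the spread between these mice. The stages were deposited as separate tables, and the labels name the NEBNext Ultra kit for the 8-week libraries and either that kit or the VAHTS Universal V6 kit for the reversal libraries. Genotypes were therefore compared within a stage, and levels set side by side across stages carry no test.

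Phase II enzymes attach a polar group to a drug, hormone, bile pigment or reactive metabolite so that it can leave in bile or urine. UDP-glucuronosyltransferases sit in the endoplasmic reticulum and transfer glucuronic acid from UDP-glucuronic acid, glutathione S-transferases join glutathione to electrophiles, and sulfotransferases transfer sulfate from the donor PAPS. Hepatocytes express all these families strongly, under the control of nuclear receptors such as CAR and PXR, of the hepatocyte factor HNF1 and of the oxidative stress factor NRF2.

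Mfap2 itself was listed at 0 in all 4 Mfap2-/- libraries of each stage. In the Mfap2+/+ libraries it was 0.902, 0.972, 1.40 and 3.07 FPKM at 8 weeks and 0.170, 0.210, 0.440 and 0.470 FPKM after reversal. Each difference had an exact permutation p of 0.0286, 2-sided, the smallest that 4 mice against 4 allow. Some libraries stood apart from their groups. At 8 weeks, Mfap2+/+ mouse 4 lay with the Mfap2-/- mice on the first principal component (score 29.8, against -10.4 to -49.4 in the other Mfap2+/+ mice and -1.19 to 38.0 in the Mfap2-/- mice). After reversal, Mfap2-/- mice 2 and 3 and Mfap2+/+ mouse 1 lay apart from the other 5 mice (scores -17.3, -36.3 and -35.3, against 15.2 to 20.0). Of 15 hepatocyte markers, 14 were listed at each stage. Their summed level at 8 weeks was 50158 to 78838 FPKM in Mfap2-/- mice and 63531 to 108336 FPKM in Mfap2+/+ mice, with albumin the most abundant.

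Levels of genes that differ between male and female mouse liver also separated the tables. The 4 Y-linked genes Ddx3y, Uty, Kdm5d and Eif2s3y were listed at 8 weeks and read in all 8 libraries, with Eif2s3y at 22.6 to 31.2 FPKM in Mfap2-/- mice and 17.0 to 34.6 FPKM in Mfap2+/+ mice. None of these 4 genes was listed after reversal. Xist, the X-linked gene looked for beside them, was listed at neither stage. These genes alone do not give the sex of the reversal mice. The summed level of genes known to be higher in female liver was 33.3 to 79.0 FPKM in Mfap2-/- mice and 39.2 to 74.3 FPKM in Mfap2+/+ mice at 8 weeks, and 453 to 2028 FPKM in Mfap2-/- mice and 881 to 1500.0 FPKM in Mfap2+/+ mice after reversal. The summed level of genes known to be higher in male liver was 977 to 3228 FPKM in Mfap2-/- mice and 606 to 3413 FPKM in Mfap2+/+ mice at 8 weeks, and 153 to 516 FPKM in Mfap2-/- mice and 220.1 to 524 FPKM in Mfap2+/+ mice after reversal. These sums cover unlike sets of genes at the 2 stages. Of 12 genes on the female list, 7 were listed at 8 weeks and 12 after reversal. Of 12 on the male list, 12 were listed at 8 weeks and 11 after reversal. Stage, table, library kit and the sex-linked pattern cannot be told apart in any level compared between stages.

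The promoters of 6 members are shown because the values below turn on their genes. Ugt1a1, Ugt1a8 and Ugt1a9 are alternative starts of the shared Ugt1a locus. Ugt2a3 and Gsta3 were among the members called lower in Mfap2-/- livers only once Mfap2+/+ mouse 4 was left out. Gsta1 had the largest level difference of the Gsta genes between the tables. Each sequence is the RefSeq window from 250 bases before to 50 bases after the transcript start on build GRCm38.p6, written on the gene's strand. Capitals mark GTTAAT, a partial HNF1 site, which reads ATTAAC on the other strand. The full HNF1 site was not searched for. In Gsta3 capitals also mark the core of the antioxidant response element, TGACNNNGC, the element bound by NRF2.
Ugt1a1, chr1:88211709-88212008, plus strand: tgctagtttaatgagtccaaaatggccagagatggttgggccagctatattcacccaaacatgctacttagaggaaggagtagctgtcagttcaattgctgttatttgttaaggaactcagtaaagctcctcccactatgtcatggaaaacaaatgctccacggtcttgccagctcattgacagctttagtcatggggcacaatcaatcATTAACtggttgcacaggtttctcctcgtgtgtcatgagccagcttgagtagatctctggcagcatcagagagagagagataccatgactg
Ugt1a9, chr1:88070529-88070828, plus strand: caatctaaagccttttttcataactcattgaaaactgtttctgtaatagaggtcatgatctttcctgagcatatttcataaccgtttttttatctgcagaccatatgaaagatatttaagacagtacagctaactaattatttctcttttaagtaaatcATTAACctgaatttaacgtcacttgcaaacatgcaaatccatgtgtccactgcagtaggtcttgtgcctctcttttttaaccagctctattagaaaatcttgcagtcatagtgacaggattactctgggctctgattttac
Ugt1a8, chr1:88087578-88087877, plus strand: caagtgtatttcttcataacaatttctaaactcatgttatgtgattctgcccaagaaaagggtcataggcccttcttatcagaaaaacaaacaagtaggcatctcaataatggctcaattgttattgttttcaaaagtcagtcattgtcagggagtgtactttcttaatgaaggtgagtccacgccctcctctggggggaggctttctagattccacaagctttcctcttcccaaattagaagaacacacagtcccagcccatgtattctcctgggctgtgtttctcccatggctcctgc
Ugt2a3, chr5:87337146-87337445, minus strand: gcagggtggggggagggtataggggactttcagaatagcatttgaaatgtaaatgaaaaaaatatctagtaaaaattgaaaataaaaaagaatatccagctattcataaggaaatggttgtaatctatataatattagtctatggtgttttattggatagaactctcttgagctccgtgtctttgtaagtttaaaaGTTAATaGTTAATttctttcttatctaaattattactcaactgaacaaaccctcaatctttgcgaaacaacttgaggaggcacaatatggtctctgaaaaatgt
Gsta3, chr1:21240335-21240634, plus strand: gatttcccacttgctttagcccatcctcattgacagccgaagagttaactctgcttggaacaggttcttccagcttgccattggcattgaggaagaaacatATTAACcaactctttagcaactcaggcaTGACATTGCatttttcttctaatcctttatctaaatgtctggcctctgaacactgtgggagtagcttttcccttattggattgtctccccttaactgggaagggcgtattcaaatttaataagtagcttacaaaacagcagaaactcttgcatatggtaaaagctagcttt
Gsta1, chr9:78230419-78230718, plus strand: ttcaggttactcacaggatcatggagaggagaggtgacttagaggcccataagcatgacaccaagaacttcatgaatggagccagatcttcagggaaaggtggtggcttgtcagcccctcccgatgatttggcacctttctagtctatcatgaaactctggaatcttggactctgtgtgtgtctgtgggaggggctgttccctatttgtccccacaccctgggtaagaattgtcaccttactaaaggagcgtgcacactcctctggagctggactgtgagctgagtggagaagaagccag

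Both strands were searched for the motifs, which do not overlap each other in these windows. RefSeq windows were found for 49 of the 56 members, 59 windows in all. The partial HNF1 site was present in 13 of the 59 member windows, from 13 genes, and in 7.10% of all 32851 windows of this length. The antioxidant response element core was present in the windows of 3 members, Gsta3, Gstm5 and Gstm7, and in 12.4% of all windows. The Ugt1a1, Ugt1a9 and Ugt2a3 windows hold the partial HNF1 site, 2 copies in Ugt2a3, while the Ugt1a8 and Gsta1 windows hold neither motif in these letters. A match describes the sequence and is not evidence of binding.

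At 8 weeks of CCl4, no member passed the test for a genotype difference, and most members were lower in Mfap2-/- livers. The test was limma on log2(FPKM + 1) over the 11928 genes that averaged 0.5 FPKM or more, with Benjamini-Hochberg adjustment and a threshold of 0.05. All differences below are Mfap2-/- minus Mfap2+/+ in these log2 units, in which the change of low genes is understated. Of the 44 members tested, 0 were called, where 0.00838% of all genes were called (1 gene, Mmp13). The smallest adjusted p of a member was 0.19, for Sult1b1. At limma's unadjusted p under 0.05, 9 members were lower and 1 was higher, where 1.62% of all genes were lower and 12.8% were higher at that threshold.

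The difference was below 0 for 38 of the 44 members (86.4%), where 17.4% of all genes had a difference below 0. The members' median was -0.38, where the median of all genes was 0.23. Because most genes were listed somewhat higher in Mfap2-/- livers, the tables were also rescaled. Median-ratio scaling took the median of all genes to -0.02, with 53.1% of all genes below 0, and the members' median to -0.70, with 41 of 44 below 0. Quantile normalization took the median of all genes to -0.0023, with 50.4% below 0, and the members' median to -0.46, with 37 of 44 below 0. The members' median thus lay below that of all genes by 0.61 as deposited, by 0.68 under median-ratio scaling and by 0.46 under quantile normalization.

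**Figure D1:**
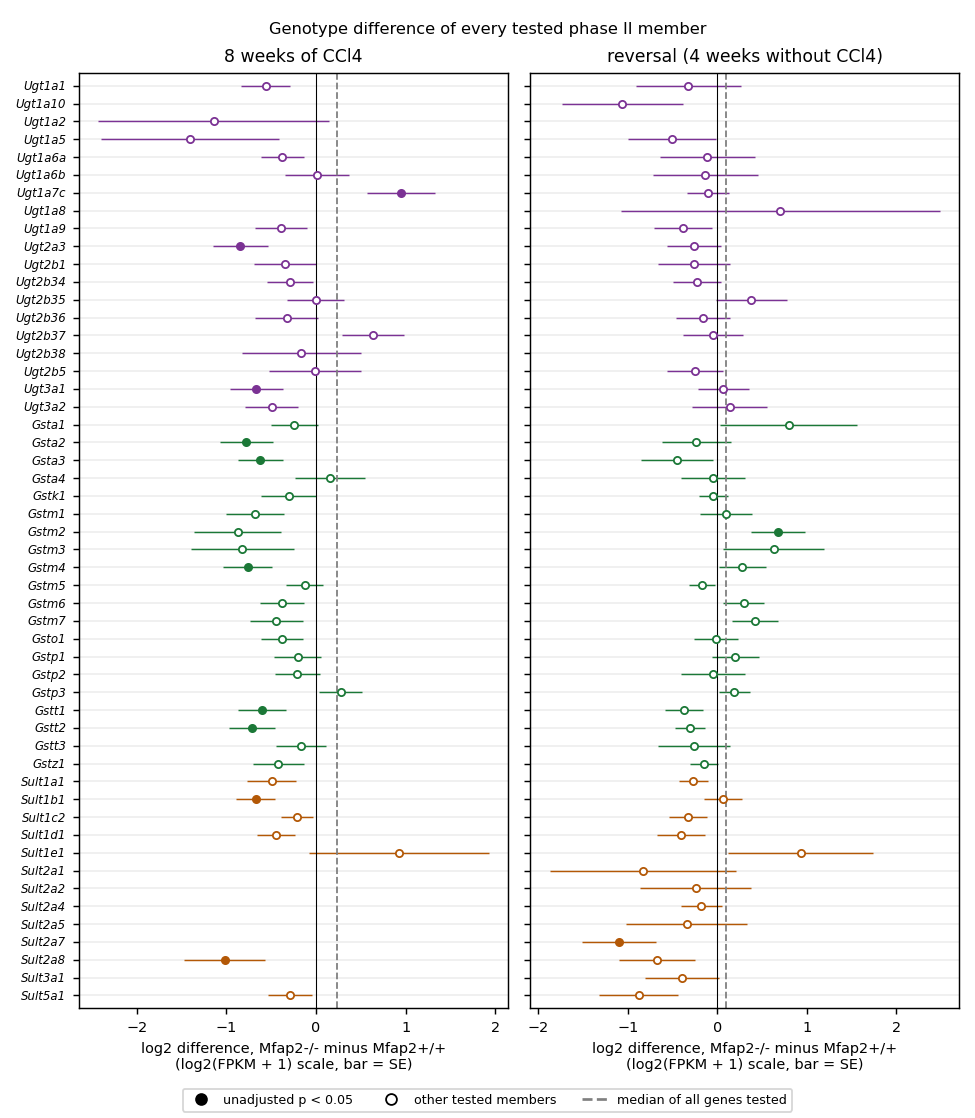
Difference of each tested member between Mfap2-/- and Mfap2+/+ livers (x axis, log2(FPKM + 1) scale, bar = SE) at 8 weeks of CCl4 (left) and after reversal (right), with Ugt members in purple, Gst in green and Sult in orange. Filled points have an unadjusted limma p under 0.05, and the dashed line is the median of all genes tested; 38 of 44 points on the left and 35 of 50 on the right lie below 0.

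Mfap2+/+ mouse 4 weighed heavily on this comparison. It lay with the Mfap2-/- mice in these same data, so leaving it out favours a wider genotype difference. The calls and adjusted p-values of that fit, here and below, are a description and no independent support. Leaving out any other single mouse gave 0 members called. Without Mfap2+/+ mouse 4, limma called 1472 of 11925 genes, 12.3% of all tested. Of these, 226 were lower in Mfap2-/- livers (1.9%) and 1246 were higher (10.4%). Among the members, 13 fell and 1 rose in this fit, and the median of the 44 was -0.54, with 39 below 0. The 13 were Ugt2a3, Ugt2b1, Ugt3a1, Ugt3a2, Gsta2, Gsta3, Gstm1, Gstm4, Gstt1, Gstt2, Gstz1, Sult1b1 and Sult2a8, and the member that rose was Ugt1a7c. Without Mfap2-/- mouse 2, 32 genes (0.268%) and 0 members were called, 4 of these genes lower (0.0334%) and 28 higher (0.234%). Leaving out Mfap2+/+ mice 1 and 2 together, the 2 libraries with the highest albumin of the 8-week table, moved the members' median to -0.20, 0.24 below the median of all genes, with 34 of 44 members below 0 and 0 called. Mfap2+/+ mouse 4 also had a low summed level of the genes known to be higher in male liver, 606 FPKM, where the Mfap2-/- mice held 977 to 3228 FPKM and the other Mfap2+/+ mice 2440 to 3413 FPKM. Of this list, 10 of 11 genes tested were below 0 in Mfap2-/- livers with all mice (median -0.34, 0 called), where 17.4% of all genes were. The part of this list in the members' differences was not tested.

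**Figure D2:**
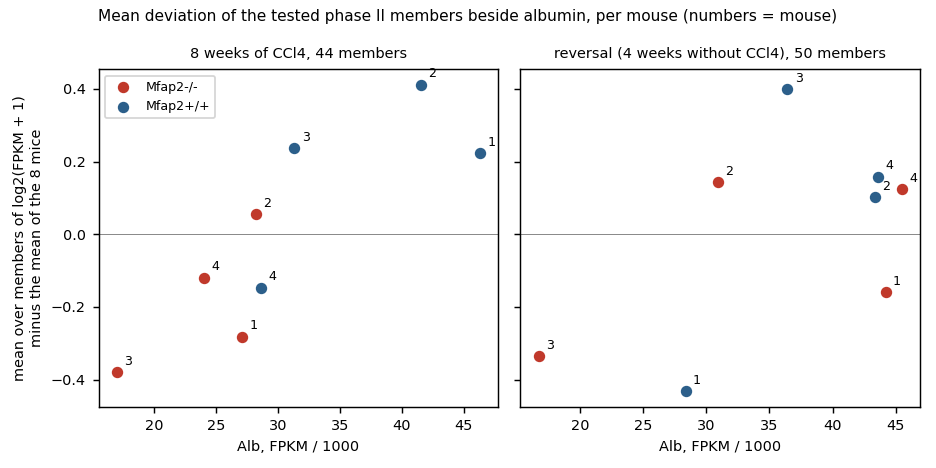
Mean deviation of the tested members from their 8-mouse mean (y axis, log2(FPKM + 1) scale) beside the level of albumin, Alb (x axis, FPKM divided by 1000), for each mouse, with Mfap2-/- in red and Mfap2+/+ in blue. At 8 weeks Mfap2+/+ mice 1 to 3 lie highest (0.22 to 0.41), while Mfap2+/+ mouse 4 (-0.15) lies within the range of the Mfap2-/- mice (-0.38 to 0.06).

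Markers of other liver cells are given here as measured at 8 weeks, where 17.4% of all genes were below 0 and the median of all genes was 0.23. Of the stellate cell and myofibroblast markers, 13 of 14 were higher in Mfap2-/- livers, with a summed level of 413 to 712 FPKM in Mfap2-/- mice and 282 to 449.7 FPKM in Mfap2+/+ mice and a median difference of 0.78. Of the Kupffer cell and macrophage markers, 14 of 16 were higher, with 1402 to 2818 FPKM in Mfap2-/- mice and 1137 to 1777 FPKM in Mfap2+/+ mice and a median of 0.60. At an unadjusted p under 0.05, 11 of the 14 and 10 of the 16 were higher, where 12.8% of all genes were. The remaining cell lists were higher too. Sinusoidal endothelium had 9 of 9 markers higher (median 0.48, 5 at that threshold) and cholangiocytes 9 of 9 (median 0.47). T and NK cells had 5 of 5 higher (median 0.43), B cells 4 of 4 (median 0.17) and neutrophils 5 of 6 (median 0.51). Of the hepatocyte markers, 13 of 14 were lower, with a median of -0.39, where the members' median was -0.38. Of the periportal hepatocyte markers, 8 of 9 were lower (median -0.64), and of the pericentral ones 5 of 8 (median -0.21). The pericentral sum was 351 to 544 FPKM in Mfap2-/- mice and 605 to 723 FPKM in Mfap2+/+ mice. Every Mfap2-/- sum lay below every Mfap2+/+ sum, which carries no test, while the hepatocyte and periportal sums overlapped. At an unadjusted p under 0.05, 3 pericentral, 2 periportal and 2 hepatocyte markers were lower, and 1 periportal marker was higher. At that threshold 1.62% of all genes were lower. No gene of these lists was called, none was listed at 0 in every library, and their part in the members' differences was not tested. In bulk liver, fewer hepatocytes and less RNA per hepatocyte cannot be told apart.

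The Ugt1a genes make up 1 locus, chr1:88055388-88220002 on mm10, in which alternative first exons are joined to shared last exons. Between 54% and 96% of the 50-base stretches of each Ugt1a gene's transcripts are also found in another member, so the split of reads between these genes is uncertain. At 8 weeks the summed Ugt1a level was 177, 204, 165 and 176 FPKM in Mfap2-/- mice, against 311, 256, 246 and 212 FPKM in Mfap2+/+ mice. Every Mfap2-/- sum lay below every Mfap2+/+ sum, which carries no test. No Ugt1a gene taken alone separated the genotypes, and most other class sums overlapped. Ugt1a1, the enzyme that conjugates bilirubin, was 43.0, 46.2, 61.0 and 47.6 FPKM in Mfap2-/- mice, against 136, 53.5, 58.1 and 66.4 FPKM in Mfap2+/+ mice. Mfap2+/+ mouse 1 stood far above the others and the genotypes overlapped, with a difference of -0.56 (SE 0.27, adjusted p = 0.36).

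Ugt1a9, which conjugates phenols and many drugs, was 37.2, 86.1, 46.7 and 47.1 FPKM in Mfap2-/- mice and 109.5, 69.5, 55.1 and 51.1 FPKM in Mfap2+/+ mice. Its genotypes overlapped, and the difference was -0.39 (SE 0.29, adjusted p = 0.50). Ugt1a7c went the other way, at 2.81, 2.30, 4.15 and 2.65 FPKM in Mfap2-/- mice and 0.387, 0.375, 0.739 and 4.13 FPKM in Mfap2+/+ mice. Only Mfap2+/+ mouse 4 was as high as the Mfap2-/- mice, and the difference was 0.95 (SE 0.38, adjusted p = 0.29) with all mice and 1.39 (SE 0.22, adjusted p = 3.0e-04) without that mouse. Ugt1a5 and Ugt1a2 swung between libraries, Ugt1a5 from 1.31 to 25.3 FPKM in Mfap2-/- mice and from 2.76 to 24.2 FPKM in Mfap2+/+ mice, and Ugt1a2 from 0 to 2.85 FPKM in Mfap2-/- mice and from 0 to 29.6 FPKM in Mfap2+/+ mice. Ugt1a6a and Ugt1a6b, which conjugate small planar phenols, had differences of -0.37 and 0.01. Ugt1a10 was listed at 0 in the 4 Mfap2-/- libraries and at 0 to 0.765 FPKM in the Mfap2+/+ libraries, too low to be tested at this stage.

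**Figure D3:**
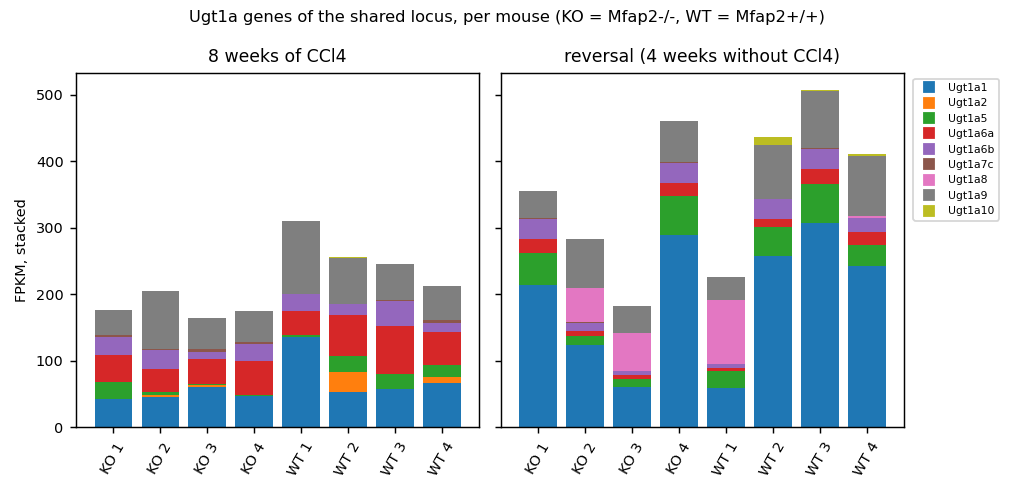
FPKM of the Ugt1a genes stacked for each mouse (y axis, FPKM; KO = Mfap2-/-, WT = Mfap2+/+) at 8 weeks of CCl4 (left) and after reversal (right). At 8 weeks the 4 Mfap2-/- bars end at 165 to 204 FPKM and the Mfap2+/+ bars at 212 to 311 FPKM; after reversal Ugt1a8 (pink) takes up 51.4 to 96.7 FPKM in Mfap2-/- mice 2 and 3 and Mfap2+/+ mouse 1.

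The Ugt2 genes, whose products conjugate steroids and bile acids, had a median difference of -0.23 with 7 of 8 members below 0 (6 of 8 after quantile normalization). Ugt2b5 was 142, 363, 212 and 515 FPKM in Mfap2-/- mice and 381, 329.5, 444 and 105 FPKM in Mfap2+/+ mice. Ugt2b36 was 133, 236, 139 and 304 FPKM in Mfap2-/- mice and 325, 286, 304 and 118 FPKM in Mfap2+/+ mice. For both genes Mfap2+/+ mouse 4 was the lowest mouse of all 8, and the differences were -0.01 and -0.33, with adjusted p-values of 0.99 and 0.62. The sign of each turned under some other setting, Ugt2b5 up to 0.30 without Mfap2-/- mouse 1. Ugt2b5 and Ugt2b38 share sequence (34.8% of the 50-base stretches of Ugt2b5 occur in Ugt2b38), so their separate levels are uncertain at both stages.

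Ugt2a3 was 18.1, 28.2, 18.3 and 27.5 FPKM in Mfap2-/- mice, against 65.6, 50.8, 41.3 and 20.9 FPKM in Mfap2+/+ mice. The 4 Mfap2-/- mice and Mfap2+/+ mouse 4 lay together below Mfap2+/+ mice 1 to 3, and the difference was -0.84 (SE 0.31, adjusted p = 0.24) with all mice and -1.16 (SE 0.24, adjusted p = 0.0029) without Mfap2+/+ mouse 4. Ugt2b1, Ugt2b34, Ugt2b35 and Ugt2b38 had differences of -0.34, -0.29, -0.0031 and -0.17, and Ugt2b37 was the Ugt2 gene above 0, at 0.64 (adjusted p = 0.41).

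The Ugt3 genes encode enzymes that in humans use sugar donors other than UDP-glucuronic acid. Ugt3a1 was 2.15, 3.30, 3.37 and 2.96 FPKM in Mfap2-/- mice, against 8.41, 6.87, 5.36 and 2.16 FPKM in Mfap2+/+ mice. Ugt3a2 was 25.6, 41.5, 30.5 and 41.4 FPKM in Mfap2-/- mice, against 75.3, 62.2, 45.7 and 25.6 FPKM in Mfap2+/+ mice. Both genes showed a like order of mice, with Mfap2+/+ mice 1 to 3 above every Mfap2-/- mouse and Mfap2+/+ mouse 4 at or near the bottom. Their differences were -0.67 (SE 0.29, adjusted p = 0.32) and -0.50 (SE 0.30, adjusted p = 0.45).

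Glutathione S-transferases were the most abundant of the 3 families. Their summed level at 8 weeks averaged 5660.1 ± 1539 FPKM in Mfap2-/- mice and 7918 ± 1987 FPKM in Mfap2+/+ mice (SD, n = 4 each). Gstm1 and Gstp1 supplied 34.6% and 29.2% of that sum in Mfap2-/- mice and 39.4% and 24.1% in Mfap2+/+ mice, as means of 4 mice. Gstm1 held place 17 and Gstp1 place 28 by mean FPKM among the 13715 genes of the 8-week table. Of the 20 Gst members tested, 18 were lower in Mfap2-/- livers, with a median of -0.40 (16 of 20 and -0.22 without Mfap2+/+ mice 1 and 2).

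**Figure D4:**
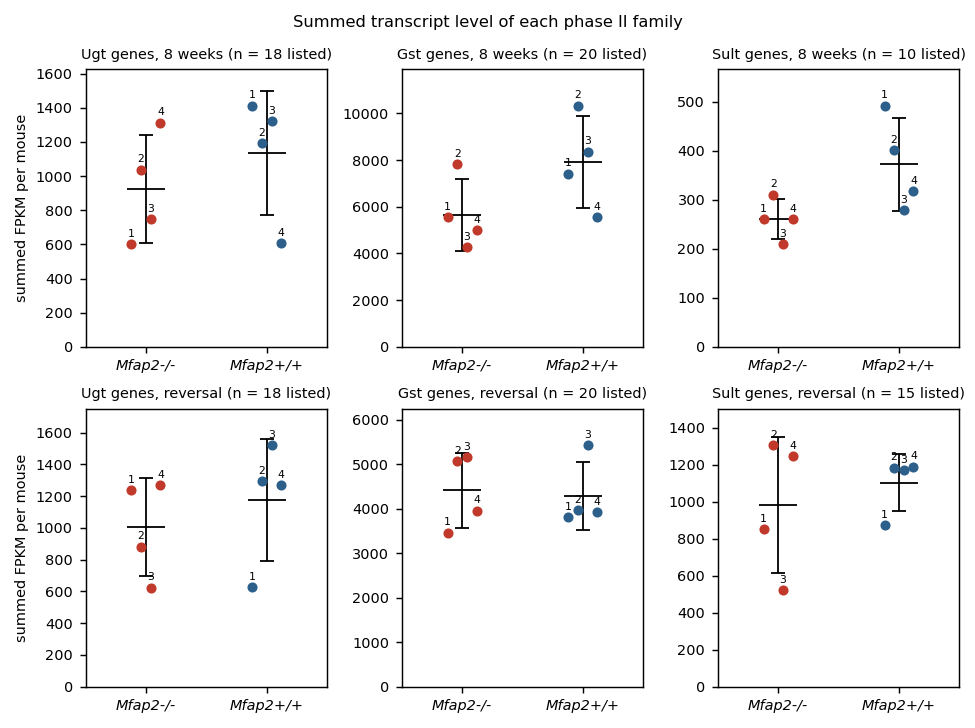
Summed FPKM of the Ugt, Gst and Sult members of each mouse (y axis, FPKM; 1 numbered point per mouse, line and bar = mean ± SD, n = 4) in Mfap2-/- and Mfap2+/+ livers at 8 weeks of CCl4 (top) and after reversal (bottom). In every panel the genotypes overlap, and Mfap2+/+ mouse 4 at 8 weeks and Mfap2+/+ mouse 1 after reversal are the lowest Mfap2+/+ points of the Ugt panels.

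Among the alpha class, which conjugates lipid peroxidation products and other electrophiles, Gsta3 was 328, 498, 323 and 448 FPKM in Mfap2-/- mice, against 660.1, 693, 672 and 433 FPKM in Mfap2+/+ mice. In the mouse this enzyme is known for conjugating activated aflatoxin. Mfap2+/+ mice 1 to 3 lay above all Mfap2-/- mice and Mfap2+/+ mouse 4 lay among them. The difference was -0.62 (SE 0.25, adjusted p = 0.28) with all mice and -0.78 (SE 0.23, adjusted p = 0.027) without Mfap2+/+ mouse 4. Gsta1 was 313, 411, 253 and 378 FPKM in Mfap2-/- mice and 261, 399, 459 and 505 FPKM in Mfap2+/+ mice, overlapping throughout, with a difference of -0.24 (SE 0.26, adjusted p = 0.62). Gsta1 and Gsta2 share sequence (44.6% of the 50-base stretches of Gsta1 occur in Gsta2), so their separate levels are uncertain. Gsta2 differed by -0.78 (SE 0.30, adjusted p = 0.26), and Gsta4, which detoxifies hydroxynonenal, by 0.16 (SE 0.39, adjusted p = 0.83).

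The mu class, a cluster at chr3:107895821-108044894 on mm10, was below 0 for 7 of 7 members, with a median of -0.68 (-0.999 under median-ratio scaling and -0.57 under quantile normalization). Gstm1, the main mu enzyme of these livers, was 1999, 3132, 1420.5 and 1449.6 FPKM in Mfap2-/- mice, against 2902, 4516, 3403 and 1899 FPKM in Mfap2+/+ mice. Gstm3 was 482, 607, 207 and 119 FPKM in Mfap2-/- mice, against 577, 1059, 283 and 409 FPKM in Mfap2+/+ mice. Both genes were highest in Mfap2+/+ mouse 2 and overlapped between genotypes, with differences of -0.68 (SE 0.32, adjusted p = 0.35) and -0.82 (SE 0.57, adjusted p = 0.49). Gstm4 differed by -0.76 (SE 0.28, adjusted p = 0.23) with all mice and by -0.96 (SE 0.25, adjusted p = 0.013) without Mfap2+/+ mouse 4. The remaining mu genes ran from -0.87 for Gstm2 to -0.13 for Gstm5.

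The pi genes Gstp1 and Gstp2 are neighbouring near-copies (51.0% of the 50-base stretches of Gstp1 occur in Gstp2), so their split is uncertain. Gstp1 was 1541, 2027, 1277 and 1649 FPKM in Mfap2-/- mice and 1663, 2128, 2309 and 1429 FPKM in Mfap2+/+ mice. Gstp2 was 184, 250.3, 153 and 262 FPKM in Mfap2-/- mice and 259, 279, 269 and 171 FPKM in Mfap2+/+ mice. The genotypes overlapped for both, with differences of -0.21 (SE 0.26, adjusted p = 0.66) and -0.21 (SE 0.25, adjusted p = 0.65). The pi median was -0.21 as deposited but 0.01 after quantile normalization, where 1 of 3 pi members was below 0.

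The theta class acts on halogenated small molecules. Gstt1 was 70.03, 76.4, 57.2 and 48.6 FPKM in Mfap2-/- mice, against 114, 138, 90.6 and 57.0 FPKM in Mfap2+/+ mice. Gstt2 was 18.6, 21.8, 13.5 and 15.9 FPKM in Mfap2-/- mice, against 43.4, 34.5, 24.2 and 19.2 FPKM in Mfap2+/+ mice. For both, Mfap2+/+ mice 1 to 3 lay above all Mfap2-/- mice and mouse 4 lay among them, with differences of -0.60 (SE 0.27, adjusted p = 0.32) and -0.72 (SE 0.26, adjusted p = 0.23). Gstt3 differed by -0.17 (SE 0.28, adjusted p = 0.74).

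Gstz1, the maleylacetoacetate isomerase of tyrosine breakdown, was 159, 253, 202 and 167 FPKM in Mfap2-/- mice, against 356, 321, 263 and 144 FPKM in Mfap2+/+ mice. Gstk1, a mitochondrial and peroxisomal enzyme, was 37.4, 45.1, 28.2 and 45.8 FPKM in Mfap2-/- mice, against 70.7, 74.5, 33.9 and 28.7 FPKM in Mfap2+/+ mice. Gsto1, a dehydroascorbate reductase of the omega class, was 97.3, 81.3, 63.9 and 70.7 FPKM in Mfap2-/- mice, against 84.0, 89.3, 94.1 and 148 FPKM in Mfap2+/+ mice. Mfap2+/+ mouse 4 was the lowest mouse of its group for Gstz1 and Gstk1 and the highest of all for Gsto1. The differences were -0.42 (SE 0.29, adjusted p = 0.48) for Gstz1, -0.30 (SE 0.31, adjusted p = 0.60) for Gstk1 and -0.38 (SE 0.24, adjusted p = 0.46) for Gsto1.

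Among the sulfotransferases, Sult1b1 separated the genotypes at 8 weeks. Sult1b1, which sulfates thyroid hormones, was 2.16, 2.02, 1.84 and 2.11 FPKM in Mfap2-/- mice, against 4.22, 5.69, 3.34 and 2.60 FPKM in Mfap2+/+ mice. Every Mfap2-/- mouse lay below every Mfap2+/+ mouse, and Sult1b1 was the only 1 of the 44 tested members for which this held, where it held for 0.612% of all genes. No tested member had every Mfap2-/- mouse above every Mfap2+/+ mouse, where 6.29% of all genes did. The difference was -0.67 (SE 0.22, unadjusted p = 0.0075, adjusted p = 0.19), and it was -0.81 (adjusted p = 0.020) without Mfap2+/+ mouse 4 and -0.38 without Mfap2+/+ mice 1 and 2. Over the 8 libraries of the stage, the genes most like Sult1b1 were Pecr, Cyp7a1 and Dcxr, with Pearson correlations of 0.97, 0.96 and 0.95 on the log2(FPKM + 1) scale, given as a description.

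Sult1a1, the main phenol sulfotransferase, was 201, 257, 149.6 and 172 FPKM in Mfap2-/- mice, against 391, 325, 191 and 219 FPKM in Mfap2+/+ mice. The genotypes overlapped, with a difference of -0.50 (SE 0.27, adjusted p = 0.41). Sult2a8, of the hydroxysteroid class, was 3.27, 4.34, 5.08 and 3.72 FPKM in Mfap2-/- mice, against 17.9, 13.9, 10.2 and 2.48 FPKM in Mfap2+/+ mice. Mfap2+/+ mouse 4 was the lowest of all 8 mice and the other 3 Mfap2+/+ mice were above every Mfap2-/- mouse. Its difference was -1.02 (SE 0.45, adjusted p = 0.34) with all mice and -1.54 (SE 0.24, adjusted p = 2.0e-04) without Mfap2+/+ mouse 4.

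Sult1e1, which inactivates oestrogens by sulfation, was the Sult gene above 0, at 10.9, 5.52, 8.67 and 16.5 FPKM in Mfap2-/- mice and 1.34, 0.490, 7.94 and 31.7 FPKM in Mfap2+/+ mice. Mfap2+/+ mouse 4 was again the exception, the highest of all 8, and the difference was 0.92 (SE 1.00, adjusted p = 0.63). Sult1d1, Sult1c2 and Sult5a1 differed by -0.45, -0.21 and -0.29, with adjusted p-values from 0.35 to 0.54. Sult2a2, Sult2b1 and Sult6b1 were too low to be tested, at no more than 0.612 FPKM in any Mfap2-/- or Mfap2+/+ library. Sult6b1 was 0.0722 to 0.403 FPKM in Mfap2-/- mice, above the 0 to 0.0558 FPKM of Mfap2+/+ mice.

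Genes that supply the donors of these reactions and that control the enzymes were described at 8 weeks by pathway list, with 0 genes of these lists called. At this stage 17.4% of all genes were below 0, and the median of all genes was 0.23. Of the other conjugating enzymes, 10 of 11 were below 0, with a median of -0.26. The UDP-glucuronic acid supply genes had 2 of 4 below 0. Of the glutathione synthesis and recycling genes, 6 of 9 were below 0. Cth, which makes cysteine for glutathione, was 56.5, 96.0, 47.8 and 65.9 FPKM in Mfap2-/- mice, against 224, 191, 95.4 and 107 FPKM in Mfap2+/+ mice, with a difference of -1.16 (SE 0.30, adjusted p = 0.13). The lowest Mfap2+/+ mouse, mouse 3, lay just below the highest Mfap2-/- mouse, mouse 2. For sulfate supply, 3 of 6 genes were below 0. The summed level of the 6 was 98.9 to 109 FPKM in Mfap2-/- mice and 117 to 121 FPKM in Mfap2+/+ mice. These sums did not overlap and were not tested. Of the conjugate efflux transporters, 5 of 7 were below 0, with a median of -0.08. Their sums just failed to overlap, at 95.5 to 105.27 FPKM in Mfap2-/- mice and 105.28 to 132 FPKM in Mfap2+/+ mice. The pericentral hepatocyte and sinusoidal endothelium marker sums also did not overlap, the endothelial ones being higher in Mfap2-/- mice. The other list sums overlapped. Papss2, which makes the sulfate donor PAPS, was 12.4, 15.7, 15.6 and 16.4 FPKM in Mfap2-/- mice and 35.5, 30.0, 19.8 and 14.6 FPKM in Mfap2+/+ mice, with a difference of -0.62 (SE 0.26, adjusted p = 0.29).

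Of the regulator list, which also holds the P450 electron donor Por, 8 of 15 genes were below 0 at 8 weeks. Por was 173, 182, 112 and 129 FPKM in Mfap2-/- mice, against 346, 218, 257 and 339 FPKM in Mfap2+/+ mice, and differed by -0.96 (SE 0.25, adjusted p = 0.12). Every Mfap2-/- mouse lay below every Mfap2+/+ mouse for Por, where this held for 0.612% of all genes. Nr1i2, which encodes PXR, differed by -0.48 (SE 0.22, adjusted p = 0.33), and Nfe2l2, which encodes NRF2, by 0.51 (SE 0.22, adjusted p = 0.31). Of the other NRF2 targets, 4 of 14 were below 0, where 17.4% of all genes were. Their median was 0.09, where the median of all genes was 0.23. Of the cytochrome P450 and related targets of AHR, CAR and PXR, 6 of 9 were below 0, with a median of -0.74 and a summed level of 787 to 1326 FPKM in Mfap2-/- mice and 1289 to 4373 FPKM in Mfap2+/+ mice. Cyp3a11, a PXR target, differed by -1.19 (SE 0.37, adjusted p = 0.18).

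After 4 weeks without CCl4, no member passed the test and no member separated the genotypes. Of the 11032 genes tested, limma called 0, 0% of all tested (933 genes, 8.46%, had an unadjusted p under 0.05). Of the 50 members tested, 0 were called. At an unadjusted p under 0.05, 1 member was lower, where 1.5% of all genes were, and 1 was higher, where 6.95% of all genes were. The smallest adjusted p of a member was 0.55. For 0 of the 50 members did every Mfap2-/- mouse lie below, or above, every Mfap2+/+ mouse, where 0.988% of all genes lay below and 3.62% above. The difference was below 0 for 35 of 50 members (70%), where 29.3% of all genes were below 0, and the members' median was -0.16, where that of all genes was 0.10. The members' median lay below that of all genes by 0.27 as deposited, by 0.29 under median-ratio scaling (39 of 50 below 0, where 52.2% of all genes were) and by 0.24 under quantile normalization (37 of 50 below 0, where 52.1% of all genes were). Without the 3 libraries that stood apart, 35 of 49 members were below 0 and the median was -0.14. The median was -0.03 without Mfap2-/- mouse 3 (28 of 50 below 0), -0.02 without Mfap2+/+ mouse 3 (27 of 50 below 0) and -0.35 without Mfap2+/+ mouse 1 (37 of 50 below 0), with 0 members called in each. Of the other cells' lists, 13 of 13 tested stellate cell and myofibroblast markers were above 0, as were 15 of 16 Kupffer cell and macrophage markers. Both lists had a median of 0.61. Above 0 were also 8 of 9 sinusoidal endothelium markers (median 0.34) and 5 of 8 cholangiocyte markers (median 0.11). The same held for 4 of 5 T and NK cell (median 0.37), 3 of 4 B cell (median 0.12) and 6 of 6 neutrophil markers (median 0.35). Of the hepatocyte markers, 9 of 14 were below 0, with a median of -0.05. In these lists 0 genes were called, and their part in the members' values was not tested.

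Spread within a genotype was wide in the Ugt genes after reversal. The summed Ugt level was 1239, 883, 625 and 1271 FPKM in Mfap2-/- mice and 626, 1295, 1519 and 1270.2 FPKM in Mfap2+/+ mice. Mfap2-/- mice 2 and 3 and Mfap2+/+ mouse 1, the libraries that stood apart on the first principal component, held the 3 lowest sums. Ugt1a1 was 215, 123, 60.7 and 290.0 FPKM in Mfap2-/- mice, against 59.5, 257, 308 and 243 FPKM in Mfap2+/+ mice. Ugt1a9 was 40.9, 73.7, 40.7 and 60.6 FPKM in Mfap2-/- mice, against 34.3, 81.4, 86.5 and 90.1 FPKM in Mfap2+/+ mice. Ugt1a1 was lowest in the same 3 mice, and the differences were -0.32 (SE 0.58, adjusted p = 0.93) for Ugt1a1 and -0.38 (SE 0.33, adjusted p = 0.79) for Ugt1a9.

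Ugt1a8 showed the opposite order of mice, an observation made after its values were seen. It was listed at 0, 51.4, 56.9 and 0 FPKM in Mfap2-/- mice, against 96.7, 0, 0 and 3.41 FPKM in Mfap2+/+ mice. The 3 libraries with low Ugt1a1 were those with Ugt1a8, and the others were at or near 0. Its difference was 0.70 (SE 1.78, adjusted p = 0.95). Since these genes share their last exons, the split between Ugt1a8 and the other Ugt1a genes is uncertain.

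Ugt2b5 after reversal was 223, 159, 109 and 196 FPKM in Mfap2-/- mice and 105, 243, 241 and 245 FPKM in Mfap2+/+ mice. Ugt2b36 was 258, 183, 136 and 247 FPKM in Mfap2-/- mice and 123, 257, 297 and 263 FPKM in Mfap2+/+ mice. Mfap2+/+ mouse 1 was the lowest of all 8 mice for both, with differences of -0.25 (SE 0.32, adjusted p = 0.87) and -0.16 (SE 0.30, adjusted p = 0.93). Ugt3a1 was 22.04, 17.2, 12.6 and 22.3 FPKM in Mfap2-/- mice and 9.60, 21.9, 24.5 and 16.8 FPKM in Mfap2+/+ mice. Ugt3a2 was 104, 63.7, 44.4 and 91.1 FPKM in Mfap2-/- mice and 26.4, 81.8, 108 and 77.0 FPKM in Mfap2+/+ mice. These Ugt3 genes overlapped throughout, with differences of 0.07 (SE 0.29, adjusted p = 0.97) and 0.14 (SE 0.42, adjusted p = 0.96), and their median of 0.10 turned to -0.04 after median-ratio scaling.

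After reversal 11 of 20 Gst members were below 0, with a median of -0.03. The median was 0.12 with 6 of 20 below 0 without Mfap2+/+ mouse 3, and 0.10 with 9 of 20 below 0 without Mfap2-/- mouse 1. The mu class lay above 0 for 6 of 7 members, with a median of 0.29 (0.15, with 5 of 7 above 0, after median-ratio scaling). Most genes were above 0 at this stage. Of all genes, 29.3% were below 0 and the median was 0.10 (52.2% and -0.01 after median-ratio scaling). Gstm1 was 1179, 2642, 2598 and 1374 FPKM in Mfap2-/- mice and 1895, 1531, 2145 and 1375 FPKM in Mfap2+/+ mice. Gstm3 was 48.2, 60.2, 166 and 51.1 FPKM in Mfap2-/- mice and 18.0, 33.0, 125 and 55.2 FPKM in Mfap2+/+ mice. Gstm1 was highest in Mfap2-/- mice 2 and 3, Gstm3 in mouse 3 of each genotype, and the differences were 0.09 (SE 0.29, adjusted p = 0.96) and 0.63 (SE 0.57, adjusted p = 0.81). Gstm2 was 92.2, 136, 239 and 107 FPKM in Mfap2-/- mice, against 64.3, 69.7, 109.7 and 96.8 FPKM in Mfap2+/+ mice. It was the member with an unadjusted p under 0.05 and a difference above 0 (0.68, SE 0.30, unadjusted p = 0.047, adjusted p = 0.58).

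Gsta1 after reversal was 9.33, 20.3, 47.3 and 2.76 FPKM in Mfap2-/- mice and 3.76, 5.75, 25.4 and 4.15 FPKM in Mfap2+/+ mice. Gsta3 was 535, 314, 196 and 598 FPKM in Mfap2-/- mice and 285, 515, 824 and 569.8 FPKM in Mfap2+/+ mice. The highest Gsta1 was in mouse 3 of each genotype, and Gsta3 was lowest in Mfap2-/- mouse 3. The differences were 0.80 (SE 0.77, adjusted p = 0.82) for Gsta1, which became -0.64 without Mfap2-/- mice 2 and 3 and Mfap2+/+ mouse 1, and -0.45 (SE 0.40, adjusted p = 0.80) for Gsta3. Gstp1 was 459, 622, 908 and 405 FPKM in Mfap2-/- mice and 464, 406, 671 and 473 FPKM in Mfap2+/+ mice, and Gstp2 was 2.27, 3.85, 8.62 and 3.62 FPKM in Mfap2-/- mice and 7.81, 2.39, 4.46 and 3.92 FPKM in Mfap2+/+ mice. Both pi genes overlapped between genotypes, with differences of 0.20 (SE 0.27, adjusted p = 0.88) and -0.05 (SE 0.36, adjusted p = 0.99).

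Gstt1 was 252, 321, 203 and 372 FPKM in Mfap2-/- mice, against 300.0, 425, 355 and 383 FPKM in Mfap2+/+ mice. Gstt2 was 64.1, 93.1, 69.7 and 97.4 FPKM in Mfap2-/- mice, against 103, 106, 94.8 and 92.5 FPKM in Mfap2+/+ mice. The theta genes overlapped, with 3 of 3 below 0 at this stage also, and the differences were -0.37 (SE 0.21, adjusted p = 0.66) and -0.30 (SE 0.17, adjusted p = 0.66). Gstz1 was 324, 298, 257 and 366 FPKM in Mfap2-/- mice and 332, 340.2, 369 and 329 FPKM in Mfap2+/+ mice. Gstk1 was 109, 101, 99.7 and 109 FPKM in Mfap2-/- mice and 84.5, 112, 128 and 111 FPKM in Mfap2+/+ mice, and Gsto1 was 86.2, 77.2, 57.1 and 106 FPKM in Mfap2-/- mice and 52.8, 99.2, 93.3 and 85.3 FPKM in Mfap2+/+ mice. These 3 genes overlapped between genotypes, with differences of -0.15, -0.04 and -0.01 and adjusted p-values of 0.84 or more.

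The Sult genes had 11 of 13 members below 0 after reversal, with a median of -0.34, and the Sult2 genes 6 of 6. The Sult median was -0.16 with 9 of 13 below 0 without Mfap2-/- mouse 3, -0.60 with 12 of 13 without Mfap2-/- mouse 4 and -0.59 with 12 of 13 without Mfap2+/+ mouse 1, and 8 of 13 were below 0 without Mfap2-/- mouse 1. Sult1a1 was 489, 423, 327 and 440.3 FPKM in Mfap2-/- mice, against 493, 523, 518 and 473 FPKM in Mfap2+/+ mice. Sult1b1 was 23.7, 15.4, 14.0 and 22.7 FPKM in Mfap2-/- mice and 13.7, 17.3, 22.6 and 18.1 FPKM in Mfap2+/+ mice. Mfap2-/- mouse 3 had the lowest Sult1a1 level, and Sult1b1 overlapped throughout, with differences of -0.27 (SE 0.16, adjusted p = 0.68) and 0.06 (SE 0.22, adjusted p = 0.96). Sult2a7 was 15.6, 6.16, 2.29 and 8.23 FPKM in Mfap2-/- mice, against 17.7, 17.7, 16.3 and 11.5 FPKM in Mfap2+/+ mice. Of the Mfap2-/- mice, mouse 1 lay within the Mfap2+/+ range and the other 3 lay below it (difference -1.10, SE 0.41, unadjusted p = 0.023, adjusted p = 0.55).

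The Sult2a genes encode sulfotransferases of hydroxysteroids and bile acids. Of these, Sult2a1 and Sult2a2 are known to be higher in female than in male mouse liver, as is Sult3a1. Sult2a1 was 5.77, 256, 15.5 and 169 FPKM in Mfap2-/- mice and 48.3, 115, 61.3 and 138 FPKM in Mfap2+/+ mice. Sult2a2 was 72.2, 389, 62.6 and 332 FPKM in Mfap2-/- mice and 88.4, 205, 269 and 238 FPKM in Mfap2+/+ mice. Mfap2-/- mice 1 and 3 were low and mice 2 and 4 high for both genes, so the Mfap2+/+ mice fell between them, with differences of -0.83 (SE 1.04, adjusted p = 0.87) and -0.24 (SE 0.62, adjusted p = 0.95). Sult2a1 and Sult2a2 share sequence, and their separate levels are uncertain. Sult2a8 was 141, 73.0, 33.6 and 145 FPKM in Mfap2-/- mice and 93.5, 159, 142 and 157 FPKM in Mfap2+/+ mice, with a difference of -0.67 (SE 0.42, adjusted p = 0.70). Unlike Sult2a1 and Sult2a2, it was higher in Mfap2-/- mouse 1 than in mouse 2. Sult1e1 was 26.5 FPKM in Mfap2-/- mouse 2 and 0.22 to 2.64 FPKM in the other 3 Mfap2-/- mice, against 0.43 to 1.93 FPKM in Mfap2+/+ mice. Of the genes known to be higher in female liver, 9 of 12 were below 0 in Mfap2-/- livers, where 29.3% of all genes were. Of these, 3 had an unadjusted limma p under 0.05, where 1.5% of all genes were lower at that threshold, and 0 were called. The part of these genes in the Sult2a values was not tested.

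The remaining Sult members differed by -0.33 for Sult1c2, -0.41 for Sult1d1, -0.39 for Sult3a1, -0.88 for Sult5a1, -0.18 for Sult2a4 and -0.34 for Sult2a5, with adjusted p-values of 0.63 or more. Sult2a3, Sult3a2 and Ugt2b38 were too low to be tested, at no more than 1.12 FPKM in any Mfap2-/- or Mfap2+/+ library. The regulator list had 9 of 15 genes below 0 after reversal, where 29.3% of all genes were, with 0 called. Por was 121, 107, 108 and 138 FPKM in Mfap2-/- mice, against 200.4, 193, 202 and 197 FPKM in Mfap2+/+ mice. Nr1i2 was 30.4, 33.5, 26.6 and 39.7 FPKM in Mfap2-/- mice, against 67.3, 49.7, 42.6 and 47.8 FPKM in Mfap2+/+ mice. For both, every Mfap2-/- mouse lay below every Mfap2+/+ mouse, as held for 0.988% of all genes. Their differences were -0.74 (SE 0.14, adjusted p = 0.27) and -0.65 (SE 0.19, adjusted p = 0.50). Genes of this list were picked for display by the smallest p. Nr1i3, which encodes CAR, differed by -0.70 (SE 0.23, adjusted p = 0.55).

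Whether the genotype difference itself changed between the stages was tested as an interaction over the 10647 genes tested in both tables, given as the reversal difference minus the 8-week difference. Limma called 0 genes, 0% of those tested (294 genes, 2.76%, had an unadjusted p under 0.05), and 0 of the 42 members tested. At an unadjusted p under 0.05 stood Gstm2 (1.56, SE 0.59), Gstm4 (1.04, SE 0.40) and Sult1b1 (0.73, SE 0.31) above 0 and Ugt1a7c (-1.05, SE 0.47) below 0, each with an adjusted p of 1.00, where 0.761% of all genes had an unadjusted p under 0.05 above 0 and 2% below 0. The mu class had 6 of 7 members above 0 and a median of 0.86, where the median of all genes was -0.12. The members' median was 0.25, with 32 of 42 above 0, where 69.2% of all genes were below 0.

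The members listed, and their levels, differed widely between the tables, which is given as a description without a test. The values listed sum to 428142 to 478062 per library in the 8-week table and 878889 to 959698 in the reversal table, which lists 13 mitochondrial genes where the 8-week table lists 0. No header gives the unit of the reversal table, TPM for a reduced gene set cannot be told apart from FPKM there, and levels of the 2 tables may therefore differ in scale. Sult2a1, Sult2a3, Sult2a4, Sult2a5, Sult2a7, Sult3a1, Sult3a2 and Ugt1a8 were listed only after reversal, and Sult2b1, Sult6b1 and Ugt1a2 only at 8 weeks. Sult2a2 was listed at 0 in 6 of the 8 libraries at 8 weeks, and at 62.6 to 389 FPKM in Mfap2-/- mice and 88.4 to 269 FPKM in Mfap2+/+ mice after reversal. Sult2a8 was also higher after reversal, at 33.6 to 145 FPKM in Mfap2-/- mice and 93.5 to 159 FPKM in Mfap2+/+ mice, where the 8-week libraries held 3.27 to 5.08 FPKM in Mfap2-/- mice and 2.48 to 17.9 FPKM in Mfap2+/+ mice. Of these genes, Sult2a1, Sult2a2 and Sult3a1 are known to be higher in female liver. Among the Mfap2-/- mice after reversal, Sult2a8 did not follow the order of Sult2a1 and Sult2a2.

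Several Gst and Ugt genes had the opposite order of levels. Gstp2 was 153 to 262 FPKM in Mfap2-/- mice and 171 to 279 FPKM in Mfap2+/+ mice at 8 weeks, and 2.27 to 8.62 FPKM in Mfap2-/- mice and 2.39 to 7.81 FPKM in Mfap2+/+ mice after reversal. Ugt2b38 was 4.93 to 29.7 FPKM in Mfap2-/- mice and 5.73 to 29.1 FPKM in Mfap2+/+ mice at 8 weeks, and at most 0.21 FPKM in Mfap2-/- mice and 0.38 FPKM in Mfap2+/+ mice after reversal. Gsta1 averaged 339 ± 70.3 FPKM in Mfap2-/- mice and 406 ± 106 FPKM in Mfap2+/+ mice at 8 weeks, and 19.9 ± 19.6 FPKM in Mfap2-/- mice and 9.77 ± 10.5 FPKM in Mfap2+/+ mice after reversal (SD, n = 4 each). For Gstp2, Gsta1 and Ugt2b38, the range of all mice at 8 weeks lay wholly above that after reversal. The pi genes are known to be higher in male mouse liver. The pi gene Gstp3 went the other way from Gstp2. It averaged 22.1 FPKM in Mfap2-/- and 18.1 FPKM in Mfap2+/+ mice at 8 weeks, and 38.5 and 33.1 FPKM after reversal. Gstp2, Gsta1 and Ugt2b38 share 44.3%, 44.6% and 37.4% of their 50-base stretches with other members, so their separate levels are uncertain. The stage, the table, the kit and the sex-linked genes all differ along with these levels.

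**Figure D5:**
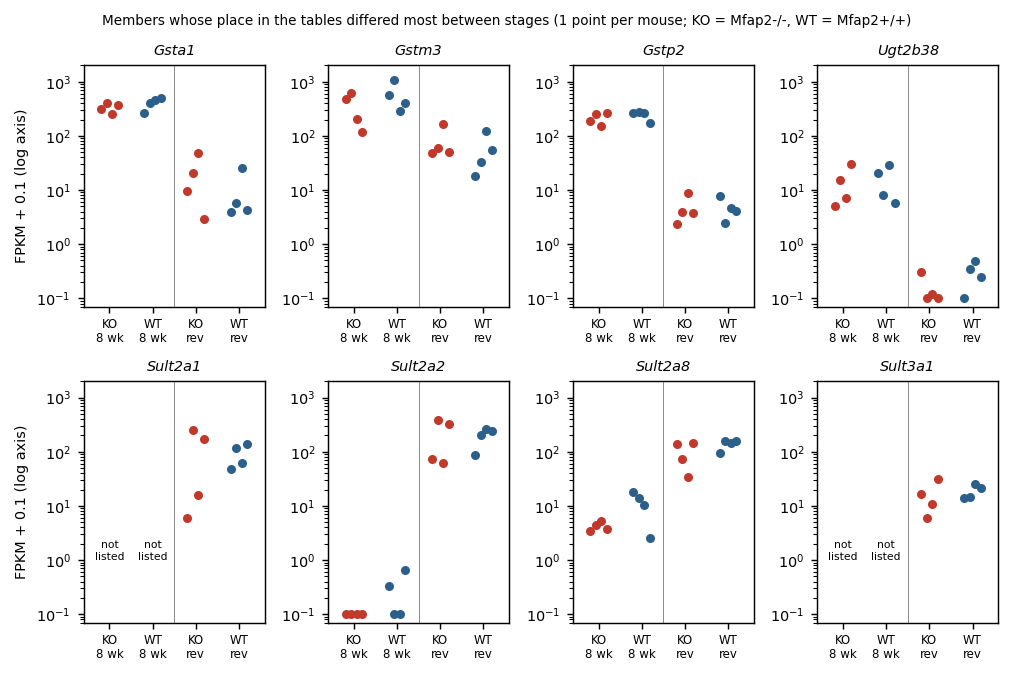
FPKM + 0.1 of 8 members in every mouse (y axis, log scale; KO = Mfap2-/- in red, WT = Mfap2+/+ in blue) at 8 weeks of CCl4 (left of the line) and after reversal (right). Gsta1, Gstp2 and Ugt2b38 lie wholly higher at 8 weeks and Sult2a2 and Sult2a8 wholly higher after reversal; Sult2a1 and Sult3a1 were not listed at 8 weeks.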

How the data were processed

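Bulk RNA-seq of frozen liver from 16 mice was analysed. Per the submitters' processing notes, HISAT and Cufflinks were used with build mm10, versions not given in the sources used here. As deposited by the authors, there was 1 table per stage with FPKM values per gene and mouse. The file headers name no unit, so FPKM rests on those notes and the values, and depth is unknown. Library totals over the genes listed were 428142 to 478062 in the 8-week table and 878889 to 959698 in the reversal table, whose values could instead be TPM with some genes removed, and levels may differ in scale between the tables.

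Limma 3.58.1 in R 4.3.3 tested log2(FPKM + 1) within each table, with a trended and robust prior, for genes that averaged 0.5 FPKM or more. P-values were adjusted by Benjamini-Hochberg over all genes tested (threshold 0.05), and an interaction of genotype and stage was fitted over all 16 libraries. The fits were run on simulated data in which each gene varied independently. Such data hold no effect shared by a whole library, such as that of Mfap2+/+ mouse 4, so they do not check the fits against it. Members and gene lists were chosen with earlier results of these data known. Named members are the 2 most abundant of each family or class, plus members that separated the genotypes. Other members are named to account for the whole set, after their values were seen. Alternatives were median-ratio scaling, quantile normalization, a pseudocount of 0.1, no filter, a filter of 2 FPKM, a block on mouse number and leaving libraries out. Promoter windows are from RefSeq, and gene positions from the GENCODE annotation of mm10. Proteins were not used here. 1 gene of the sex-biased list is not reported here and was left out of its sums and counts.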

Additional observations from a re-analysis of the deposited data

Results flagged for a closer look

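Of 80 groups of 4 values checked, 7 held a mouse that stood far from the other 3, by Dixon's test of the gap over the range. Chance flags about 1 in 20 groups. At 8 weeks, 3 of these values were in Mfap2+/+ mice. Gsta3 was 433 FPKM in Mfap2+/+ mouse 4, where the other 3 Mfap2+/+ mice held 660.1 to 693 FPKM. Gsto1 was 148 FPKM in the same mouse, where the others held 84.0 to 94.1 FPKM. Ugt1a1 was 136 FPKM in Mfap2+/+ mouse 1, where the others held 53.5 to 66.4 FPKM.

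After reversal, Gstm3 was 166 FPKM in Mfap2-/- mouse 3, where the other 3 Mfap2-/- mice held 48.2 to 60.2 FPKM. Among Mfap2+/+ mice, Gsta1 was 25.4 FPKM in mouse 3, where the others held 3.76 to 5.75 FPKM. Ugt2b5 was 105 FPKM in Mfap2+/+ mouse 1, where the others held 241 to 245 FPKM, and Ugt1a9 was 34.3 FPKM in that mouse, where the others held 81.4 to 90.1 FPKM. The cause of these gaps was not tested.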

How the results depend on the processing

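At 8 weeks the count of genes called was 1 and became 2 after median-ratio scaling, 3 with a pseudocount of 0.1, 0 with a block on mouse number and 2 without Mfap2+/+ mice 1 and 2. Leaving out 1 mouse at a time gave 1 to 1472 genes and 0 to 14 members, with 1472 and 14 both without Mfap2+/+ mouse 4, and 32 genes and 0 members without Mfap2-/- mouse 2. The 8-week medians moved under median-ratio scaling, to -0.70 for all members, -0.66 for Ugt, -0.72 for Gst and -0.76 for Sult members. Without Mfap2+/+ mice 1 and 2 they were -0.050 for Ugt, -0.22 for Gst and -0.30 for Sult members, and with no filter -0.26 for Sult members. Leaving out 1 mouse at a time gave medians of -0.54 to -0.30 for all members, and after reversal -0.35 to -0.02. The interaction gave 0 to 1 genes, with 1 without Mfap2+/+ mouse 3 or 4 of the 8-week groups, and 0 members. The cause of these moves was not tested.

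Among the named members, the sign changed in 10 of 285 alternative values at 8 weeks (Gstk1, Gstp1, Ugt2b36 and Ugt2b5) and in 36 of 300 after reversal, for 13 members. With no read depth, the counting error of low members such as Sult1b1 is unknown. The mouse numbers did not pair the genotypes (correlations of same-numbered deviations -0.44 to 0.37 at 8 weeks and -0.66 to 0.37 after reversal), and the block on mouse number took members called from 0 to 0 in each comparison.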
